A study of Homo sapiens with 6 samples.

Results

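Keratins are the intermediate filament proteins of epithelial cells, and desmosomes are the junctions that anchor their filaments at cell borders. The genes described here are 8 keratins (KRT5, KRT7, KRT8, KRT14, KRT15, KRT17, KRT18 and KRT19) and 2 proteins of the desmosomal plaque, desmoplakin (DSP) and plakophilin 3 (PKP3). Their members were taken as every probe set annotated to exactly 1 of these symbols, which gave 20 of the 49293 probe sets in the table. These 20 read 9 of the 10 genes, and no probe set used here carried KRT17 alone. The genes had been picked with the knockdown against control values of these same arrays in view. Their fold changes, intervals and adjusted p-values are therefore a description and no independent evidence.

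Total RNA came from A375, an established human melanoma cell line. The 3 knockdown arrays held A375 cells carrying a stable shRNA against MAP4K5, a MAP4K family kinase, and the 3 control arrays held A375 cells for which the labels name no hairpin. Both groups were grown untreated in serum-supplemented DMEM with antibiotics, and each group's arrays are labelled as biological replicates. The labels do not say whether the controls carried a vector, whether the knockdown line was 1 clone, or whether replicates came from separate cultures, so p-values reflect array-to-array spread, which may be technical. Effects of the hairpin or of selection and the loss of MAP4K5 cannot be told apart. Levels are RMA intensities on a linear scale. In bulk RNA, fewer cells of a type and less RNA per cell cannot be told apart.

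Keratins form obligate heteropolymers of a type I and a type II chain. KRT8 with KRT18 is the pair of simple epithelia, with KRT7 and KRT19 added in ductal and glandular epithelia, and KRT5 with KRT14 or KRT15 is the pair of the basal layer of stratified epithelia. In the desmosome, desmosomal cadherins bind plakoglobin and plakophilins on their inner face, and desmoplakin links these to the keratin filaments. Melanocytes are of neural crest origin and build their filaments mainly from vimentin, although some melanoma lines also transcribe KRT8 and KRT18.

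The targeted gene MAP4K5 measured 19.7, 18.8 and 20.3 in knockdown cells, against 77.7, 78.1 and 76.3 in control cells, which left 25.3% of the control level. Control replicate 2 kept a control level of MAP4K5 but stood apart from the other controls over all genes. On the first principal component, with 63.9% of the variance, knockdown arrays scored -21.04 to -17.88, control 2 scored 0.32 and controls 1 and 3 scored 29.94 and 28.19. Calls that control 2 decides are given with and without it; without it, the same test called 20.6% of all genes. Of the markers of the melanocyte lineage, SOX10, PAX3, MITF, S100B and MIA were above 8.68, the median over all genes of the mean intensity (the median gene), whereas PMEL, MLANA, TYR and TYRP1 were below it. By the test used here, MITF was higher and SOX10, S100B and MIA were lower in knockdown cells. Among the 6 fits that left out 1 array, S100B kept its call in all 6, MITF lost it without any single knockdown array, and SOX10 and MIA kept it only without control 2. PAX3 was called lower only without control 2 (log2 -0.40, against -0.31 with all arrays).

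Of the 9 measured genes, 5 were higher and 1 was lower in knockdown cells at a limma adjusted p under 0.05, and KRT5, KRT8 and KRT19 were not called. The same test called 7.83% of all 18132 genes, 3.7% upwards and 4.13% downwards. The groups did not overlap for 6 of the 9 genes, against 28.1% of all genes. The median log2 fold change was 0.56 over the 9 genes and 0.01 over all genes. Since the genes were chosen on this contrast, nothing is read from these shares. Among the called genes, the type I chains KRT14, KRT15 and KRT18 were higher and the type II chain KRT7 was lower. Both plaque genes were higher, each at 1 of its 2 probe sets. The genes not called were the type I chain KRT19 (log2 0.02) and the type II chains KRT5 (0.29) and KRT8 (0.56). The plot of intensities by array shows each gene with its 3 arrays per group.

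**Figure D1:**
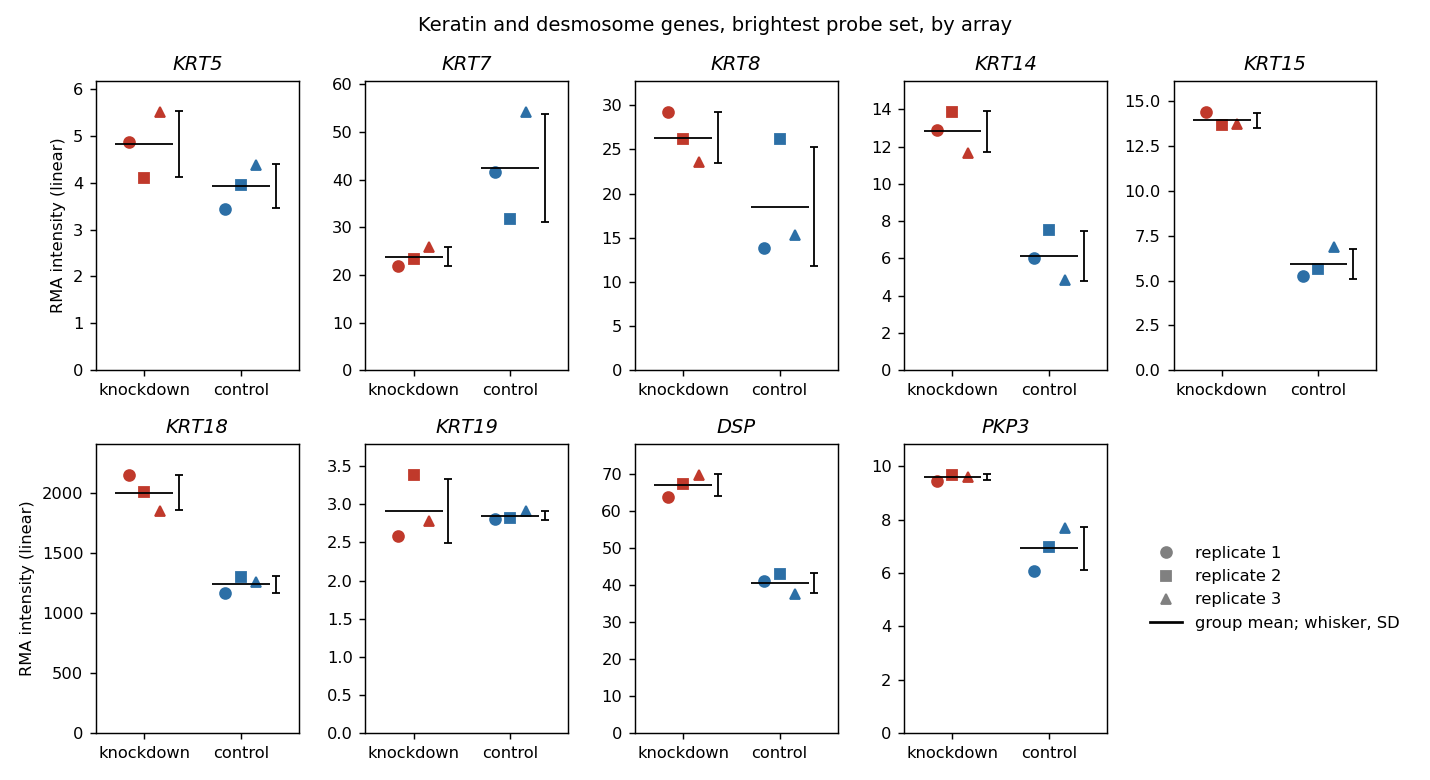
RMA intensity (linear axis from 0) of the brightest probe set of each gene, knockdown left and control right. Symbols are the replicates, bars the group means and whiskers the SD (n = 3 each). The groups are apart for KRT7, KRT14, KRT15, KRT18, DSP and PKP3, and control replicate 2 of KRT8 (26.2) lies among the knockdown arrays.

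KRT18, the type I chain of simple epithelia, was higher in knockdown cells at both of its probe sets. The brighter measured 2153, 2007 and 1855 in knockdown cells, against 1165, 1300 and 1255 in control cells. All knockdown arrays lay above all controls, control 2 included. The level averaged 2005 ± 149 in knockdown and 1240 ± 69.1 in control cells (SD, n = 3 each), a log2 fold change of 0.69 ± 0.09 (SE; limma adjusted p = 0.00493), called in all 6 fits that left out 1 array (0.64 to 0.75). The other KRT18 probe set gave the same picture, with 1757, 1735 and 1598 in knockdown cells against 955, 1061 and 967 in control cells, and a log2 fold change of 0.77. Both end in _x_at, the suffix of probe sets whose probes can bind related transcripts, and KRT18 has processed pseudogenes. A probe set annotated to the pseudogene KRT18P55 measured 5.35, 4.97 and 5.91 in knockdown cells, against 4.53, 4.01 and 3.35 in control cells, and was not called (adjusted p = 0.0828 over all probe sets).

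KRT8, the type II partner of KRT18 and its neighbour on chromosome 12, was read by 8 probe sets, all ending in _x_at. At the brightest, 11752634_x_at, it measured 29.2, 26.2 and 23.5 in knockdown cells, against 13.9, 26.2 and 15.4 in control cells. Control replicate 2 thus lay within the knockdown range, and controls 1 and 3 lay below it. The log2 fold change was 0.56 ± 0.22 (SE; 95% interval 0.06 to 1.07), not called at an adjusted p of 0.167. Without control replicate 2 it was 0.84 ± 0.11, called at an adjusted p of 0.00151. Against control 2 alone the difference was 5.3e-05 on the log2 scale.

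The other KRT8 probe sets repeated the high control 2. It exceeded controls 1 and 3 in 7 of the 8, by up to 0.90 on the log2 scale, and it reached or exceeded the lowest knockdown array in all 8. The log2 fold changes of the 8 ran from 0.03 to 0.57, all positive, with a median of 0.32, and limma called 0 over all 49293 probe sets (3 had an unadjusted p under 0.05), where the same test called 4.43% of them, 1.98% upwards. Without control 2, the log2 fold changes ran from 0.12 to 0.87 and 4 of the 8 were called, against 13.4% of all probe sets. The groups overlapped in all 8, and did not in 7 of the 20 member probe sets, against 23.9% of all probe sets. The least variable, 11755287_x_at, measured 10.8, 11.1 and 10.3 in knockdown cells, against 9.08, 10.5 and 10.8 in control cells, and showed no separation. Between the brightest probe sets of KRT18 and KRT8, the log2 difference within each array was 6.20, 6.26 and 6.30 in knockdown cells. In control cells it was 6.39, 5.63 and 6.35. At these probe sets, the pair stood in nearly the same proportion in 2 of the controls as in knockdown cells. In control 2, KRT8 was higher relative to KRT18. This does not hold for every KRT8 probe set. Without control 2, KRT18 changed by 0.73 at its brightest probe set, and the 8 KRT8 probe sets by 0.12 to 0.87. These differences compare changes in proportion, not amounts of the 2 transcripts.

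**Figure D2:**
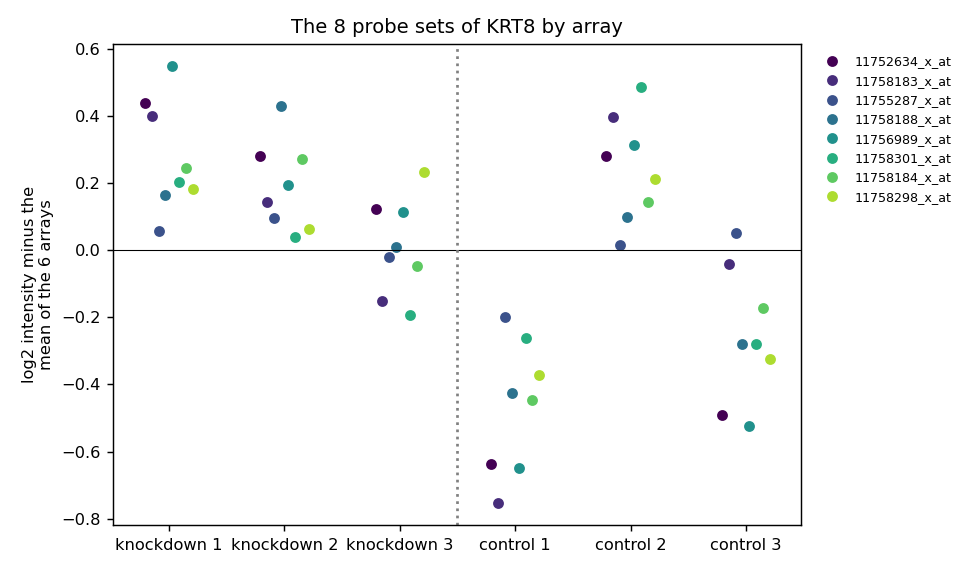
Log2 intensity of the 8 KRT8 probe sets, each minus its own mean over the 6 arrays, by array (1 point per probe set and array). The points of control 2 lie at or above 0 with those of knockdown replicates 1 and 2, and those of control 1 lie below 0.

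KRT7, a type II chain of ductal epithelia, was the only member gene called lower. It measured 22.0, 23.4 and 25.9 in knockdown cells, against 41.5, 31.7 and 54.2 in control cells. The groups did not overlap, and control 2 was the control nearest to the knockdown arrays. The mean was 23.8 ± 2.0 in knockdown and 42.5 ± 11.3 in control cells (SD, n = 3 each), 1.75-fold lower, with a log2 fold change of -0.81 ± 0.18 (SE) and a limma adjusted p of 0.0323. Leaving out control replicate 1, control replicate 3 or any single knockdown array ended the call, with log2 fold changes of -0.87 to -0.61 in those fits, and it stood at -1.001 without control 2. It was also lost with 8 added before the logarithm (-0.65, adjusted p = 0.0713). KRT19, a type I chain of simple and ductal epithelia, measured 2.59, 3.39 and 2.78 in knockdown cells, against 2.81, 2.82 and 2.92 in control cells. The KRT19 arrays overlapped, at a level below the median gene, with a log2 fold change of 0.02 (95% interval -0.23 to 0.28), whose sign turned to -0.09 without knockdown replicate 2.

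Of the basal keratins, KRT15, a type I chain that marks basal and hair follicle stem cells, had the largest fold change among the 9 genes with all arrays, whereas without control 2 KRT14 (log2 1.25) stood just above it (1.21). It measured 14.4, 13.6 and 13.8 in knockdown cells, against 5.28, 5.65 and 6.89 in control cells. The lowest knockdown array was well above the highest control. KRT15 averaged 13.9 ± 0.41 in knockdown and 5.94 ± 0.85 in control cells (SD, n = 3 each), 2.36-fold higher (log2 1.24 ± 0.11 SE, limma adjusted p = 0.00085). Its single probe set does not end in _x_at or _s_at, and the call held in each of the 6 fits that left out 1 array (1.16 to 1.35). Against control 2 alone the difference was 1.30.

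KRT14, the main type I chain of basal keratinocytes, measured 12.9, 13.9 and 11.7 in knockdown cells, against 6.03, 7.51 and 4.82 in control cells. These groups were also apart, 2.12-fold (log2 1.09 ± 0.16 SE, limma adjusted p = 0.00687), and the call held in all 6 fits without 1 array (0.93 to 1.25). Its only probe set, 11727459_x_at, can bind related chains, and the close relatives KRT16 and KRT17 have no probe set of their own symbol here. A probe set annotated to KRT16 together with its pseudogenes measured 1.99, 2.27 and 2.04 in knockdown cells, against 2.09, 1.84 and 2.05 in control cells. It was not called (log2 0.07). Probe sets of the pseudogenes KRT16P1, KRT17P2 and KRT17P5 were not called, with log2 fold changes of -0.21 to 0.23. Control levels of KRT14 and KRT15 lay below the median gene mean of 8.68, so the size of their fold changes depended on the scale. With 8 added before the logarithm both stayed called, at 0.56 for KRT14 and 0.66 for KRT15.

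KRT5, the type II partner of both, measured 4.87, 4.09 and 5.51 in knockdown cells, against 3.44, 3.95 and 4.39 in control cells. The groups overlapped at this low level, and the log2 fold change of 0.29 ± 0.13 (SE; 95% interval -0.01 to 0.60) was not called (adjusted p = 0.228). The second KRT5 probe set read 1.93 to 2.58 in knockdown and 1.93 to 2.21 in control cells, close to the lowest values of the table, at 1.55. Within each array, KRT14 minus KRT5 (log2) was 1.41, 1.76 and 1.08 in knockdown cells, against 0.81, 0.93 and 0.14 in control cells. KRT15 minus KRT5 was 1.56, 1.74 and 1.32 in knockdown cells, against 0.62, 0.51 and 0.65 in control cells. Both differences used the brightest probe sets, rest on the dim KRT5 and were not tested. By RefSeq order KRT15 and KRT19 are neighbours on chromosome 17, yet only KRT15 of these 2 was called; whether the 2 fold changes differ was not tested.

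**Figure D3:**
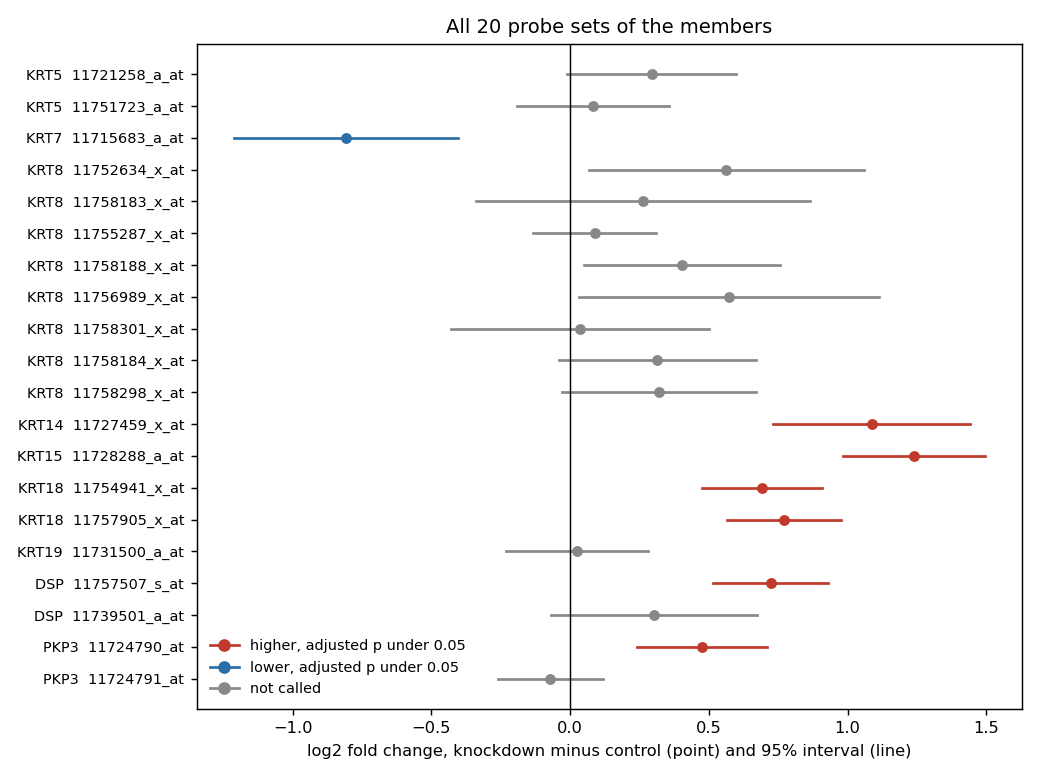
Log2 fold change (knockdown minus control, horizontal axis) with its 95% interval for each of the 20 probe sets, from the limma fit over all probe sets. Calls are higher for 6 (KRT14, KRT15, KRT18 at both, DSP and PKP3 at 1 each), lower for 1 (KRT7) and absent for 13.

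DSP, the plaque protein that binds keratin filaments, was higher in knockdown cells at the brighter of its probe sets. There, at 11757507_s_at, it measured 63.9, 67.3 and 69.8 in knockdown cells, against 41.2, 43.0 and 37.7 in control cells. The arrays separated with little spread, at 67.0 ± 3.01 in knockdown and 40.6 ± 2.72 in control cells (SD, n = 3 each). The change was 1.65-fold (log2 0.72 ± 0.09 SE, limma adjusted p = 0.00359) and was called in all 6 fits without 1 array (0.67 to 0.77). The second probe set, 11739501_a_at, measured 22.4, 18.7 and 13.6 in knockdown cells, against 14.8, 14.1 and 14.5 in control cells. Here knockdown replicate 3 fell below every control, and the log2 fold change of 0.30 (95% interval -0.07 to 0.67) was not called. The DSP call thus rests on a probe set ending in _s_at.

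PKP3, a plakophilin of the same plaque that binds desmoplakin and desmosomal cadherins, measured 9.46, 9.68 and 9.60 in knockdown cells, against 6.08, 6.98 and 7.70 in control cells. The groups were apart, with a log2 fold change of 0.48 ± 0.10 (SE, limma adjusted p = 0.0286). The PKP3 mean over all arrays lay below the median gene. The call ended when control replicate 1 (0.39) or any single knockdown array (0.47 to 0.48) was left out, and was kept without control 2 (0.49) or control 3 (0.56). The second PKP3 probe set was dim, at 3.19, 3.43 and 3.28 in knockdown cells against 3.41, 3.59 and 3.40 in control cells, with a log2 fold change of -0.07 that was not called. Averaged over both probe sets, PKP3 stood at 0.20 and was not called (adjusted p = 0.136), and with 8 added before the logarithm it stood at 0.24 and stayed called (adjusted p = 0.0341).

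**Figure D4:**
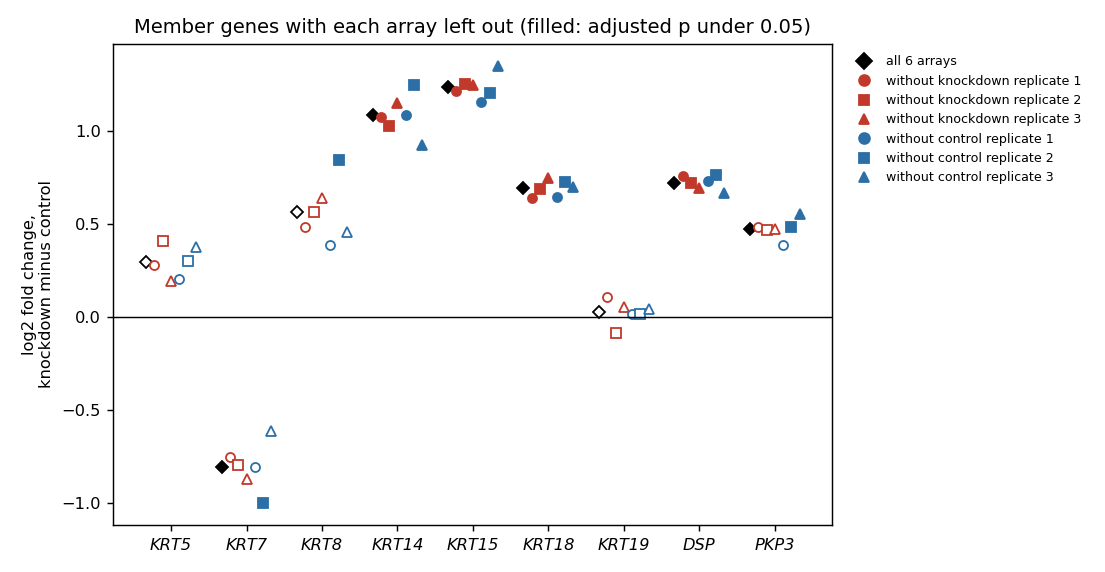
Log2 fold change (knockdown minus control) of each of the 9 genes with all 6 arrays and with each array left out in turn. Filled symbols have an adjusted p under 0.05. KRT14, KRT15, KRT18 and DSP are filled throughout, KRT8 is filled only without control replicate 2, and KRT7 and PKP3 lose the call in 5 and 4 of the 6 fits.

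Upstream sequences are shown for DSP, KRT5 and KRT8, the 3 of the 10 genes that RefSeq promoters matched. DSP was called, and KRT5 and KRT8 were not. Motifs of ZEB and SNAI, of AP-2, and of SP and KLF factors were searched. The part of any factor in the levels of these genes was not tested. Each run is the 250 bases before 1 listed start of the gene, 5′ to 3′ on the gene's strand in GRCh38.p14. Other starts of these genes were not searched. Capitals mark CAGGTG on either strand, the E-box core that ZEB and SNAI repressors bind. They are chr6:7541421-7541670 on the plus strand for DSP, chr12:52520395-52520644 on the minus strand for KRT5, and chr12:52926470-52926719 on the minus strand for KRT8.
DSP: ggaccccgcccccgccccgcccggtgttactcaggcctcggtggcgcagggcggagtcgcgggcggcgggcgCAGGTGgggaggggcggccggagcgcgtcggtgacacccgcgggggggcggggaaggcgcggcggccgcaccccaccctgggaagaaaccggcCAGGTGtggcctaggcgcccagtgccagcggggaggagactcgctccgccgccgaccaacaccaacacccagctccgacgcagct
KRT5: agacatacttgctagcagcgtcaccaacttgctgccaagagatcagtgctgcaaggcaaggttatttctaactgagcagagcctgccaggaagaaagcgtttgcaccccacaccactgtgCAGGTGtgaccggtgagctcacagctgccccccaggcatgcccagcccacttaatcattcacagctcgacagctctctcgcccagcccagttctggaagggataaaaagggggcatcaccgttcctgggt
KRT8: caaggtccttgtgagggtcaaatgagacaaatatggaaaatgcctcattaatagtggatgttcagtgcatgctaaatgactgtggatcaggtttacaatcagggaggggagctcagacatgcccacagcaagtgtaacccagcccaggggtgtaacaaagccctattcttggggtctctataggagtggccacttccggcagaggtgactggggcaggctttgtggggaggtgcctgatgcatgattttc
The DSP window holds 2 E-boxes, whose first bases lie at -178 and -85 from the start, and the KRT5 window holds 1, at -130. The KRT8 window holds 0. Over all 35116 promoters of this length, 17.5% hold at least 1. The GC box GGGCGG, which SP and KLF factors bind, occurs 7 times in the DSP window, some matches lying within a few bases of each other, and 0 times in the other 2, and 42.6% of all promoters hold it. The AP-2 motif GCCNNNGGC, searched on both strands like the others, is in none of the 3 windows and in 19.8% of all. A match is not evidence of binding, and the absence of these letters says nothing about the factor.

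The remaining keratins, desmosome genes and their partners were read from 6 lists written from general knowledge, with 79 of 90 entries measured. Of the 79, 4 were higher (KRT10, JUP, PERP and LAMB3) and 3 were lower (ZEB1, TWIST1 and TFAP2C), while the same test called 7.83% of all genes. Without control 2, 12 of the 79 were called, 6 higher and 6 lower, against 20.6% of all genes. The genes named as called only without control 2 were singled out after their values were seen. Of 39 other keratin genes, only KRT10 was called, and 36 of the 39 had a mean below the median gene. KRT10, a type I chain of differentiating epidermis, measured 164, 148 and 164 in knockdown cells, against 116, 130 and 109 in control cells (log2 0.43 ± 0.10 SE, limma adjusted p = 0.033), and kept its call only without control 2 among the fits that left out 1 array. No type II or hair keratin passed, the smallest p being those of KRT71 (log2 0.22) and KRT84 (0.19), both dim. The median log2 fold change was -0.01 over the type I, 0.07 over the type II and 0.01 over the hair keratins, beside 0.01 over all genes.

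Of the 12 other desmosome genes, PERP and JUP were higher and 10 were not called, with a median of 0.07. PERP, a membrane protein required for desmosome assembly in mouse skin, measured 108, 105 and 86.0 in knockdown cells, against 62.1, 60.6 and 56.0 in control cells. It was apart from the controls in every array, at log2 0.73 ± 0.11 (SE, limma adjusted p = 0.00719), and 2 of its 3 probe sets were called. JUP, which encodes plakoglobin, measured 13.7, 11.2 and 12.2 in knockdown cells, against 9.11, 9.26 and 8.96 in control cells (log2 0.44 ± 0.09, adjusted p = 0.0297), and kept its call only without control 2 among the fits without 1 array. PKP2, another plakophilin, showed the pattern of KRT8 at its brighter probe set: 18.5, 20.6 and 22.7 in knockdown cells, against 11.1, 19.3 and 8.84 in control cells. It was not called (log2 0.73 ± 0.25, limma adjusted p = 0.12) except without control 2, where it stood at 1.05. PKP2 was singled out after its values were seen. Its dimmer probe set measured 7.66, 8.66 and 8.45 in knockdown cells, against 7.56, 8.66 and 4.98 in control cells. That probe set gave 0.26 and was not called. The desmosomal cadherins DSG1 to DSG4 and DSC1 to DSC3 were not called. Among them only DSG2, likewise named after its values were seen, was above the median gene, at 106 to 113 in knockdown and 101 to 110 in control cells.

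Of the 10 measured plakins and hemidesmosome genes, LAMB3, a chain of the laminin that anchors basal keratinocytes, was higher and 9 were not called. It measured 13.8, 12.1 and 12.7 in knockdown cells, against 8.77, 7.30 and 7.86 in control cells (log2 0.69 ± 0.10 SE, limma adjusted p = 0.00645), and the call held in all 6 fits without 1 array. A second, dimmer LAMB3 probe set gave -0.03 and was not called. Without control 2, 2 more genes of this list were called, DST higher (log2 0.35, against 0.29 with all arrays) and ITGB4 lower (-0.60, against -0.47). The DST probe set ends in _s_at. With _x_at and _s_at probe sets removed and all arrays kept, DST stood at 0.014 (limma adjusted p = 0.985). Of the 18 measured regulators of epithelial transcription and splicing, 3 were lower, 15 were not called, and 11 lay below the median gene. The zinc-finger factors KLF4 and KLF5 were among the brighter ones and were called lower only without control 2, which was their lowest array. KLF4 measured 63.4, 62.5 and 63.9 in knockdown cells, against 83.6, 37.3 and 96.8 in control cells (log2 -0.08 with all arrays and -0.51 without control 2). KLF5 measured 92.5, 103 and 102 in knockdown cells, against 122, 77.7 and 119 in control cells (-0.07 and -0.29). ZEB1, a repressor of epithelial genes, measured 72.5, 75.6 and 75.7 in knockdown cells, against 140, 127 and 137 in control cells. This was 1.80-fold lower (log2 -0.85 ± 0.08 SE, limma adjusted p = 0.00112) and was called in all 6 fits without 1 array. All 7 ZEB1 probe sets end in _x_at or _s_at. The groups were apart in the same direction in all 7, and 5 were called. The other ZEB and SNAI factors of the list, ZEB2 (log2 -0.04), SNAI1 (-0.27) and SNAI2 (0.16), were not called. SNAI1 and SNAI2 lay below the median gene and ZEB2 above it. They were named after their values were seen.

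TWIST1, a bHLH factor of mesenchyme and neural crest, measured 36.3, 37.7 and 42.9 in knockdown cells, against 67.8, 56.2 and 62.2 in control cells (log2 -0.67 ± 0.10 SE, limma adjusted p = 0.00928). TFAP2C, an AP-2 factor, measured 119, 126 and 123 in knockdown cells, against 186, 172 and 178 in control cells (log2 -0.54 ± 0.08, adjusted p = 0.00745). In both genes all knockdown arrays lay below all controls. The TFAP2C call was lost without knockdown replicate 1, and that of TWIST1 without knockdown replicate 1 or 2.

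**Figure D5:**
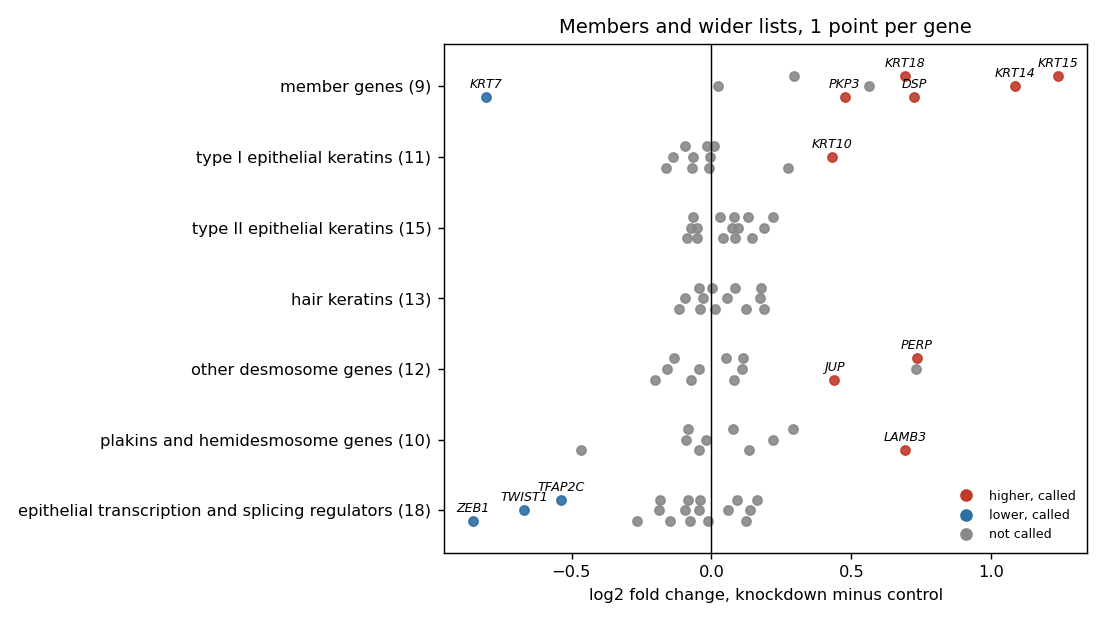
Log2 fold change (knockdown minus control, horizontal axis) of the member genes and of the genes of the 6 wider lists, 1 point per gene, with the number measured in brackets. Called genes are coloured and named; 36 of the 39 other keratin genes were dim, and only KRT10 of them is called.

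Markers of epithelial cells were set beside these values. Of 10 measured, 1 was higher and 9 were not called, and 9 lay below the median gene. The defining markers CDH1 and EPCAM were dim in all arrays, CDH1 at 2.54 to 2.83 in knockdown and 2.48 to 2.88 in control cells, and EPCAM at 2.06 to 2.58 in knockdown and 2.19 to 2.82 in control cells. The marker that was higher was SFN (log2 0.75 ± 0.13 SE, limma adjusted p = 0.0141), which measured 49.7, 43.2 and 46.2 in knockdown cells, against 26.8, 33.1 and 23.6 in control cells. Its call was kept without control 2 or control 3 and lost without control 1 or any single knockdown array. The summed level of the list was 81.6 to 87.0 in knockdown and 60.5 to 68.9 in control cells, a gap that lay mostly in SFN, since the other 9 markers summed to 37.1 to 40.8 in knockdown and 35.9 to 37.6 in control cells. Of 8 fibroblast markers limma called 0 with all arrays (2 had an unadjusted p under 0.05), and 1, COL1A2, was called lower without control 2 (log2 -0.41, against -0.32). All 8 lay below the median gene, and their sums were 27.5 to 29.0 in knockdown and 30.4 to 31.2 in control cells. The part of SFN and of the melanocyte markers in the keratin and desmosome values was not tested.

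Across the 6 arrays, the genes outside these lists whose log2 intensities ran closest to the mean standardized profile of the 9 genes were LRRC1 (Pearson r = 0.996), SLC39A6 (0.996) and ARSJ (0.995). The 3 running most opposite were IER3 (-0.999), TMED5 (-0.996) and DYNC2I1 (-0.995). They are the extremes of 9039 candidate genes over 6 arrays that fall into 2 groups, so these values describe a shared order of arrays and carry no test. LRRC1 measured 25.7, 29.1 and 27.6 in knockdown cells, against 16.6, 19.4 and 18.98 in control cells. IER3, an immediate early gene, measured 474, 452 and 472 in knockdown cells, against 628, 571 and 565 in control cells. The profile itself stood at 0.45, 0.66 and 0.54 SD units in knockdown cells, against -0.85, -0.40 and -0.39 in control cells.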

How the data were processed

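Expression was measured on 6 Affymetrix arrays of total RNA. The deposited values are probe set intensities summarised with RMA, as the submitters' processing notes name it; no source used here states its version. The linear scale was read from the values (1.55 to 6658), and array medians lay between 4.85 and 4.94. The number of arrays limits the precision. Log2 was taken without a pseudocount. Platform annotation gave 44988 probe sets 1 symbol, 1832 several and 2473 none. For each of 18132 genes the single-symbol probe set with the highest mean was used, and every probe set was also fitted. No dim features were removed.

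Knockdown minus control was fitted with limma 3.58.1 (R 4.3.3; lmFit, eBayes), with Benjamini-Hochberg adjustment over all features and a threshold of 0.05. The fit was tested on simulated data. Sequences and plots were handled in Python 3.11.15 with pandas 2.3.3 and matplotlib 3.10.9. RefSeq tables of GRCh38.p14 gave symbols, gene order and promoters. The members and lists were chosen with earlier results of these data known. The naming rule took the 9 measured members, MAP4K5, up to 4 called genes of each wider list or else its smallest p, and the 3 genes most like and most unlike the members' profile among genes at or over the median. Alternatives were a replicate block, an intensity trend, array weights, other scalings, dim-feature filters, a pseudocount of 8, other probe set rules and leaving out each array. Same-numbered arrays did not deviate together (r of -0.08, 0.02 and 0.06), so the numbers were not taken as pairs.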

Additional observations from a re-analysis of the deposited data

How the results depend on the processing

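With 1 array left out in turn, 4 to 7 member genes, 3 to 11 member probe sets, 3 to 12 genes of the wider lists and 324 to 3732 of all genes were called, against 6, 7, 7 and 1420 with all arrays. The highest counts were those without control replicate 2 and the lowest member probe set and wider list counts those without knockdown replicate 1. KRT19, not called, had a log2 fold change of -0.088 without knockdown replicate 2 and up to 0.11 over these fits; the cause was not tested. With _x_at and _s_at probe sets removed, 3 member genes (KRT7, KRT15 and PKP3) of 6 measured were called, beside 1083 of 16701 genes. KRT8, KRT14 and KRT18 then had no probe set, and DSP stood at 0.30 (limma adjusted p = 0.336). Array weights called 3103 of all genes and KRT8 (0.72, adjusted p = 0.0153); the cause was not tested. With the replicate block, 6 member genes, 6 member probe sets, 6 genes of the wider lists and 1188 of all genes were called, and no call of a member gene changed. Under the other alternatives 5 or 6 member genes were called, beside 1150 to 1633 of all genes. With the lowest 50% of genes left out, these were 5 of 6 measured members and 1633 of 9066 genes. No detection calls are used here, so how far KRT5, KRT19, PKP3 and the dim list genes stand above background is not known.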
